A study of Mus musculus with 8 samples.

Results

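The chemokine and chemokine receptor genes of the mouse were examined for H3K27-me3, a histone mark of silent chromatin, in liver. The genes were chosen by name, as protein-coding genes on chromosomes 1 to 19 whose symbols begin with Ccl, Cxcl, Ccr, Cxcr or Ackr and a number, and 55 of 20720 protein-coding genes met this rule. They comprised 23 Ccl and 12 Cxcl ligands, 11 Ccr and 5 Cxcr receptors and 4 atypical receptors (Ackr). The study asked how loss of JMJD3, the histone demethylase that removes H3K27-me3, alters this mark in fasted liver. All animals were male JMJD3-floxed C57BL/6 mice, so both groups carried the floxed allele. Virus was given at the age of 8 weeks, either AAV-TBG-Cre, in which the TBG promoter directs Cre to hepatocytes and not to the other cells of the liver, or AAV-GFP as control. After 12 weeks the mice were fasted for 16 h. Each virus group had 2 H3K27-me3 libraries and 2 input libraries, made with antibody Ab6002. The submitters labelled the material as primary liver cells, whereas their protocol describes minced liver tissue, in which immune, endothelial and other cells are also present. In such bulk tissue, the number of cells with the mark and the amount of mark per cell cannot be told apart.

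Chemokines are small secreted proteins that direct the migration of leukocytes. They act through receptors coupled to G proteins, and the atypical receptors bind chemokines without that coupling and mostly remove them. Many of these genes arose by duplication and still lie next to each other, and most are held silent until an inflammatory signal arrives. In liver, Kupffer cells, endothelial cells, stellate cells and injured hepatocytes can produce chemokines, and their receptors are carried mainly by leukocytes. H3K27-me3 is placed by Polycomb repressive complex 2, which is known to favour CpG-rich, inactive promoters.

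The deposited data were 1 list of enriched regions for each virus group, called by the authors on both replicates together. A gene was counted as marked where a region of a list lay within a given distance of a start site of its protein-coding transcripts, and presence in a list was the only call made. The lists themselves were very unequal. The AAV-Cre list held 59267 regions that covered 2.98% of chromosomes 1 to 19, and the AAV-GFP list held 34586 regions that covered 0.602%. The shortest regions were 300 bp and 120 bp, and 88.6% and 46.8% of regions had a q-value (the false discovery rate given by the peak caller) of 0.05 or lower. With 1 pooled list per group there was no replicate value, the depth is unknown, and no test between the groups was possible. For this reason the main counts of chemokine genes are given beside the share of all protein-coding genes in the same list. The lists hold no measure of Kdm6b, the gene of JMJD3, so they do not check its deletion.

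Markers of liver cell types were read in the same way, within 15 kb of a start site. Of 9 hepatocyte genes, only Cyp2e1 was marked, in both lists, and within 1 kb none was. A further planned hepatocyte marker, Tf, was not among the genes counted. Marked in the AAV-Cre and AAV-GFP lists, respectively, were 3 and 0 of 6 Kupffer cell and macrophage genes, 5 and 3 of 6 endothelial genes, 5 and 5 of 6 stellate cell genes, 5 and 4 of 5 cholangiocyte genes, and 4 and 1 of 6 lymphocyte genes. Over all protein-coding genes the shares at this distance were 43.1% and 29.0%, and no marker list was tested against them. The part of cell composition in the results on chemokine genes was not tested.

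Promoter sequences of 6 of the genes illustrate the range of CpG content among them. Each runs from 250 bases before to 50 bases after a start in the RefSeq promoter table (GRCm38.p6), is written 5′ to 3′ on the strand of the gene, and has each CpG in capitals. Shown first are the 3 genes that, among those with a region within 1 kb of a start in both lists, had the strongest AAV-Cre regions by p-value, Cxcl14 (chr13:56296502-56296801, minus strand), Cxcr4 (chr1:128592250-128592549, minus strand) and Cxcl2 (chr5:90903649-90903948, plus strand). Ccr1 (chr9:123968643-123968942, minus strand) had the lowest CpG content among the genes without a region within 15 kb in either list, followed by Ccl7. Ccl25 (chr8:4324960-4325259, plus strand) and Cxcl10 (chr5:92348840-92349139, minus strand) were also without a region and were added after the values were seen. The Ccl25 sequence is the upstream of 2 entries that the table gives for this gene.
Cxcl14: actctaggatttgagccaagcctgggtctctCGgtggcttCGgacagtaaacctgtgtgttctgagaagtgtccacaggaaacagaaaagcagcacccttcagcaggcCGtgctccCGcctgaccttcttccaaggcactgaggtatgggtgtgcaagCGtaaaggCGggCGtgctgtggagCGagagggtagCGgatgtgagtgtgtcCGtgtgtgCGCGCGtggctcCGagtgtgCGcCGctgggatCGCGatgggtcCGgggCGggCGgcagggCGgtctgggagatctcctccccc
Cxcr4: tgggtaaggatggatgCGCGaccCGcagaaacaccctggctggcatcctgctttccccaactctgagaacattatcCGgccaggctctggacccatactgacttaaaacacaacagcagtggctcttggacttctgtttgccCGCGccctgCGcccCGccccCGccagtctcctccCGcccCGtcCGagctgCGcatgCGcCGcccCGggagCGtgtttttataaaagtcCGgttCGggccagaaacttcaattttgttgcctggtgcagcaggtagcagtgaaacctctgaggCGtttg
Cxcl2: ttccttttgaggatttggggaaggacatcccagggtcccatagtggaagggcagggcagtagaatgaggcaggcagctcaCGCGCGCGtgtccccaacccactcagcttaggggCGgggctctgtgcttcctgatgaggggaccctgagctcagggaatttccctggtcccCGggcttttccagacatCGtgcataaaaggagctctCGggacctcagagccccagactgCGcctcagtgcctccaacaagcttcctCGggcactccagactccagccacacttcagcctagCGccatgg
Ccr1: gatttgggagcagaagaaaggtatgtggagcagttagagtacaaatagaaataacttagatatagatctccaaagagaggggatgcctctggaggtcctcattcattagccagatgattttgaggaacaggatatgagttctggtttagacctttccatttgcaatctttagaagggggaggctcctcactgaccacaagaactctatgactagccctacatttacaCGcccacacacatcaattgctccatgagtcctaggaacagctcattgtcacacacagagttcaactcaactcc
Ccl25: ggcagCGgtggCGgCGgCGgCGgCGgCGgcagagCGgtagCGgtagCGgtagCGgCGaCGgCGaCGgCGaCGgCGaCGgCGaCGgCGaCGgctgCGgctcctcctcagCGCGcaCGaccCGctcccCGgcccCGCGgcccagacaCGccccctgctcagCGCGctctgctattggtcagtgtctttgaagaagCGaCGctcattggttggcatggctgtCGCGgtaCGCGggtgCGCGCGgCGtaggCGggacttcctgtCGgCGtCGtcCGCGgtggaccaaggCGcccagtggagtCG
Cxcl10: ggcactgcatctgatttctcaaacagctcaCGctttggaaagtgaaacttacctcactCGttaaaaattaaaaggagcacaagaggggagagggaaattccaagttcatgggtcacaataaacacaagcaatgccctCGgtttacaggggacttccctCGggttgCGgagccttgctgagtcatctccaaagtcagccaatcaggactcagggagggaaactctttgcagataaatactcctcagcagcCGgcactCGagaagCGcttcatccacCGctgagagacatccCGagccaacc

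The sequences held 22 CpGs at Cxcl14, 20 at Cxcr4, 11 at Cxcl2, 1 at Ccr1, 52 at Ccl25 and 10 at Cxcl10. All 300 bases of the Cxcl14 promoter lay inside a region of each list. At Cxcr4, all 300 bases were inside an AAV-Cre region and 0 were inside an AAV-GFP region, because the AAV-GFP regions lay on both sides of it. The Cxcl2 promoter was inside an AAV-Cre region whole and inside an AAV-GFP region for 277 bases. The other Ccl25 entry, which lies at the start of its curated RefSeq transcripts, held 1 CpG, so the count of 52 applies to the upstream entry alone. RefSeq promoters were available for 41 of the 55 genes. Their 48 entries had a median of 4 CpGs, compared with 7 over all 32851 entries, and 14 of them (29.2%) had at least 10 CpGs, compared with 43.5% of all entries.

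Next, the chemokine genes with a region within 15 kb of a start site, the distance used by the study, were counted. In the AAV-Cre list 27 of 55 genes (49.1%) were marked, compared with 43.1% of all protein-coding genes. In the AAV-GFP list 13 genes (23.6%) were marked, compared with 29.0%. All 13 were also marked in AAV-Cre (both lists, 27.7% of all genes). A further 14 genes (25.5%) were marked in the AAV-Cre list only, compared with 15.3% of all genes, and 0 in the AAV-GFP list only, compared with 1.25%. The share of genes marked in AAV-Cre only was therefore higher among chemokine genes than among all genes, a difference that was not tested. Among 77 interleukin and interleukin receptor genes this share was 22.1%. The genes marked in AAV-Cre only included the ligands Cxcl3, Cxcl12, Cxcl15, Ccl3, Ccl4, Ccl22, Ccl24 and Ccl26, the receptors Cxcr2, Ccr6, Ccr7 and Ccr8, and the atypical receptor Ackr1. The counts were also taken with only the 34586 strongest regions of each list. They were then 23 genes in AAV-Cre (all genes, 37.5%), 13 in AAV-GFP (all genes, 29.0%) and 10 in AAV-Cre only (all genes, 10.4%).

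**Figure D1:**
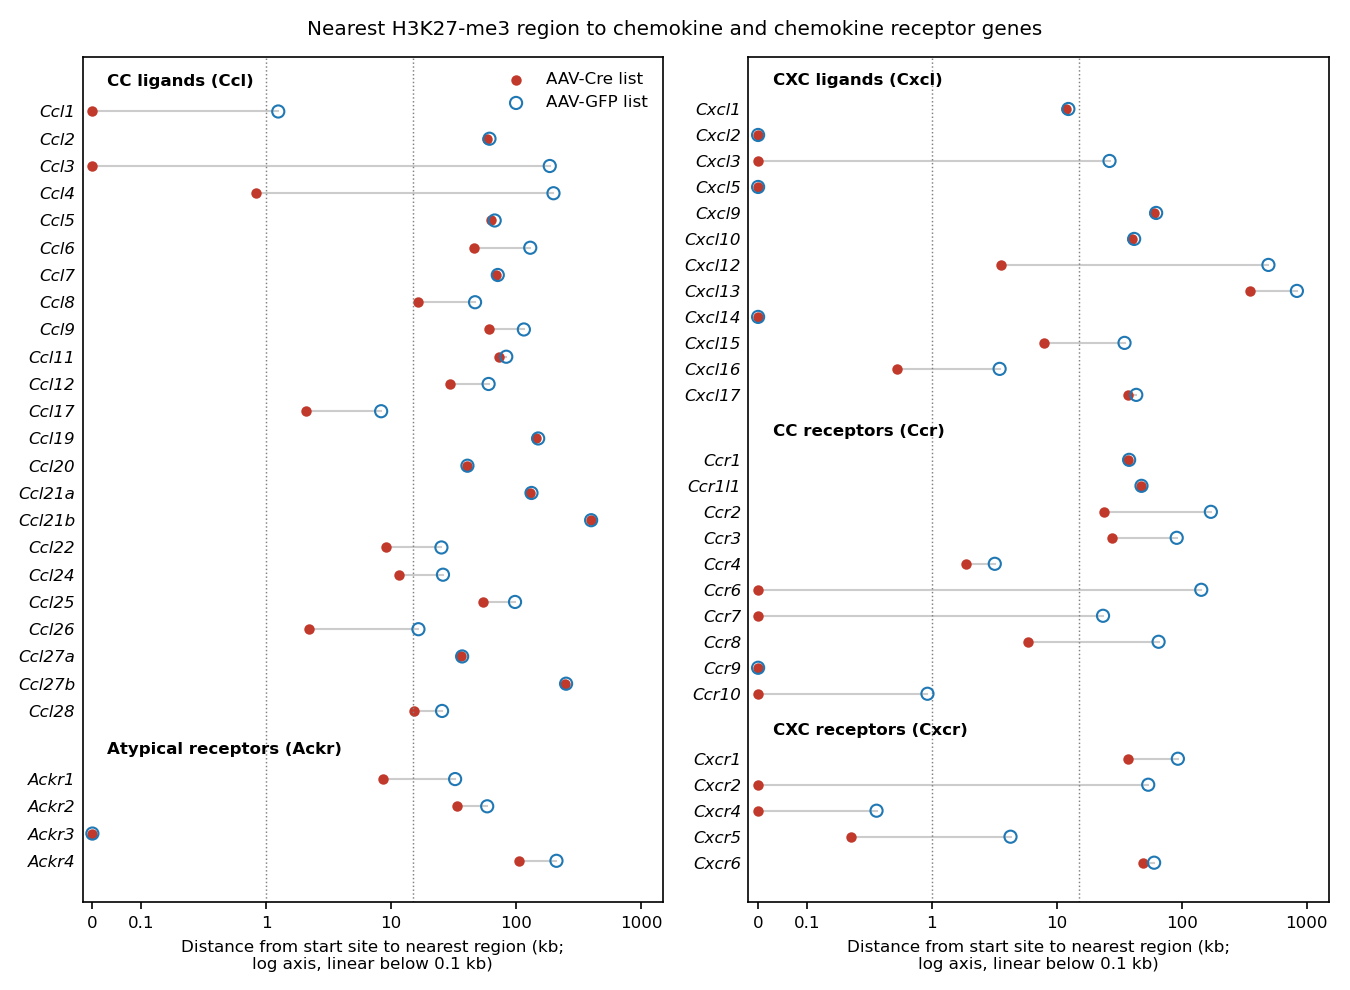
Distance in kb from the closest start site of the chemokine and chemokine receptor genes named in the text to the nearest H3K27-me3 region of the AAV-Cre list (filled red points) and of the AAV-GFP list (open blue circles), with dotted lines at 1 kb and 15 kb. The 13 genes marked in AAV-GFP are also marked in AAV-Cre, and Ccl3, Ccl4, Ccr6 and Cxcl12 have an AAV-Cre region within 15 kb but no AAV-GFP region within 100 kb.

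The order of the family and the background depended on the list and on the distance. Directly within 0.1 kb of a start site, 13 chemokine genes (23.6%) had an AAV-Cre region, compared with 21.1% of all genes, and 5 (9.09%) had an AAV-GFP region, compared with 13.2%. Within 1 kb the counts were 16 (29.1%; all genes, 24.6%) in AAV-Cre and 7 (12.7%; all genes, 17.1%) in AAV-GFP. Within 50 kb, where a single region can serve several neighbours of a cluster, they were 42 (76.4%; all genes, 63.9%) and 28 (50.9%; all genes, 48.3%), and within 100 kb the shares were 89.1% (all genes, 77.4%) and 74.5% (all genes, 64.2%). Within 5 kb, 20 genes (36.4%; all genes, 31.1%) and 11 genes (all genes, 21.2%) were marked, with 9 genes in AAV-Cre only (10.5% of all genes). The median distance to the nearest region was 15.4 kb in AAV-Cre and 47.7 kb in AAV-GFP, compared with 23.9 kb and 53.8 kb for all genes. Thus the share of chemokine genes was above that of all genes in AAV-Cre at each of the distances examined between 0.1 and 100 kb, and below it in AAV-GFP up to 15 kb.

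**Figure D2:**
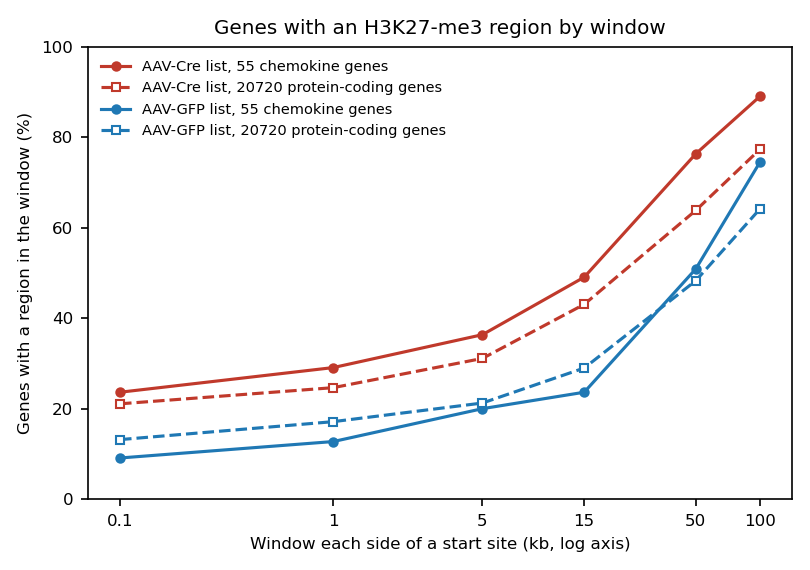
Percentage of genes with an H3K27-me3 region within a window each side of a start site (kb, log axis), for the 55 chemokine genes (solid lines, filled circles) and all 20720 protein-coding genes (dashed lines, open squares), in the AAV-Cre list (red) and the AAV-GFP list (blue). The chemokine genes lie above all genes in AAV-Cre, from 23.6% against 21.1% at 0.1 kb to 89.1% against 77.4% at 100 kb, and below them in AAV-GFP up to 15 kb. These differences were not tested.

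Within 1 kb, the 7 genes marked in AAV-GFP (Ackr3, Cxcr4, Ccr10, Cxcl14, Cxcl5, Cxcl2 and Ccr9) were also marked in AAV-Cre, which occurred in 16.8% of all genes. Another 9 genes (16.4%) were marked in AAV-Cre only, compared with 7.81% of all genes and 15.6% of interleukin and interleukin receptor genes. These 9 were Cxcr2, Cxcl16, Ccl1, Ccl3, Ccl4, Ccr7, Ccr6, Cxcl3 and Cxcr5. None was marked in AAV-GFP only, compared with 0.294% of all genes. Of the 9 genes, 3 (Cxcl16, Ccl1 and Cxcr5) had an AAV-GFP region within 15 kb.

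These counts depended on which regions were admitted, because the AAV-Cre list was longer and held no region below 300 bp. With equal numbers of regions, 12 genes were marked within 1 kb in AAV-Cre (all genes, 22.4%) and 5 in AAV-Cre only (all genes, 5.71%). Over gene bodies the numbers were then 15 (all genes, 26.8%) and 5 (all genes, 6.45%). With only regions of at least 300 bp, 6 genes were marked within 15 kb in AAV-GFP (all genes, 20.8%). In AAV-Cre only, 21 were (all genes, 22.3%). Over gene bodies, 5 genes were marked in AAV-GFP (all genes, 16.3%) and 14 in AAV-Cre only (all genes, 13.5%). With q of 0.01 or lower, AAV-GFP marked 8 genes within 15 kb (all genes, 20.1%) and 5 over the body (all genes, 15.5%). With q of 0.05 or lower it marked 6 over the body (all genes, 17.1%). The number of chemokine genes marked in AAV-Cre only thus ranged from 10 to 21 within 15 kb across these choices of regions.

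Among the 35 ligands, 15 were marked within 15 kb in AAV-Cre and 7 in AAV-GFP. Of the 12 Cxcl genes, 8 (66.7%) were marked in AAV-Cre and 5 (41.7%) in AAV-GFP, beside 43.1% and 29.0% of all genes, a difference that was not tested. Of the 8, Cxcl1, Cxcl15 and Cxcl16 were counted only through regions closer to the start of another gene. Cxcl14, a ligand made by epithelia under resting conditions, had the region with the lowest q-value of any chemokine gene in each list. In AAV-Cre a region of 3714 bp at chr13:56294544-56298257 covered its start and coding exon with a fold enrichment over input of 6.46 (q = 3.57e-38). In AAV-GFP a region of 1455 bp at chr13:56295595-56297049 covered the same start, with a fold of 4.25 (q = 1.02e-12). Folds and q-values depend on the depth of each list and were not compared between the lists. In AAV-Cre 73.6% of the Cxcl14 gene body was inside regions, and in AAV-GFP 18.95% was.

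The neutrophil-attracting ligands that signal through Cxcr2 lie together on chromosome 5, and 3 of them had a region over the start. At Cxcl2, the AAV-Cre region at chr5:90903219-90905314 (2096 bp) had a fold of 8.26 (q = 2.22e-29), and the AAV-GFP region inside it was 285 bp wide with a fold of 2.13 (q = 0.138). At Cxcl5, the AAV-Cre region at chr5:90758720-90760028 (1309 bp) had a fold of 7.52 (q = 1.13e-24), and the AAV-GFP region was 597 bp wide with a fold of 2.62 (q = 0.0121). Both genes were marked at the start in both lists, although the AAV-GFP region of Cxcl2 was weak. At Cxcl3, a region of 923 bp at chr5:90785747-90786669 covered the start in AAV-Cre only, with a fold of 5.47 (q = 1.40e-13), and AAV-GFP had its nearest region at 26470 bp. Cxcl1 and Cxcl15 had no region of their own within 15 kb. Cxcl1 was counted through the Cxcl2 region, 11978 bp downstream, and Cxcl15 through the Cxcl3 region, 7865 bp upstream.

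The remaining CXC ligands had a weak region, regions closer to another gene, or none. Cxcl12, the ligand that retains blood-forming cells in the bone marrow, had 1 AAV-Cre region of 1536 bp, 3608 bp upstream of the start, with a fold of 2.07 (q = 0.0573), and AAV-GFP had none within 494355 bp. Cxcl16, a membrane-bound ligand of Cxcr6, had an AAV-Cre region 532 bp from its start (fold 2.73, q = 0.0086). All regions near Cxcl16 were closer to the start of Zmynd15, including the strongest of them at chr11:70463319-70466484 (fold 7.43, q = 1.13e-24). Cxcl9 and Cxcl10, which are induced by interferon, Cxcl13, which guides B cells to follicles, and Cxcl17, a ligand of mucosal tissue, had no region within 15 kb in either list. The nearest AAV-Cre regions were 60608, 39798, 354713 and 37398 bp from their starts.

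Among the 23 Ccl genes, 7 (30.4%) were marked within 15 kb in AAV-Cre and 2 (8.70%) in AAV-GFP, beside 43.1% and 29.0% of all genes. Within 1 kb, 3 and 0 were, beside 24.6% and 17.1% of all genes. These 23 include Ccl19, Ccl21a, Ccl21b, Ccl27a and Ccl27b, which lie in repeated sequence, where a region could be missed. Ccl3 and Ccl4, ligands that attract monocytes and T cells, were marked in AAV-Cre only. A region of 470 bp at chr11:83649036-83649505 covered the start of Ccl3 with a fold of 2.56 (q = 0.023). Ccl4 had regions 833 bp (fold 2.34, q = 0.0573) and 1896 bp (fold 3.04, q = 9.46e-04) upstream of its start. The nearest AAV-GFP regions were 186430 bp from Ccl3 and 199659 bp from Ccl4. With equal numbers of regions in both lists, neither Ccl3 nor Ccl4 had an AAV-Cre region within 1 kb, and likewise with q of 0.01 or lower.

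Ccl1, a ligand of Ccr8, had an AAV-Cre region of 822 bp over its start at chr11:82179367-82180188 (fold 2.99, q = 9.46e-04). In AAV-GFP, its only region within 15 kb was 120 bp wide, 1254 bp downstream, with a fold of 2.26 (q = 0.305). Ccl17, a ligand of Ccr4, had 3 AAV-Cre regions between 2101 and 8039 bp upstream, of which that at chr8:94800374-94802414 was the strongest (fold 4.12, q = 7.90e-08). In AAV-GFP it had regions of 228 and 198 bp (folds 2.88 and 3.02) inside this strongest region. Ccl22, the other ligand of Ccr4, had 1 AAV-Cre region 9128 bp downstream (fold 2.38, q = 0.0573) and no AAV-GFP region within 15 kb. Of the eotaxins, which attract eosinophils, Ccl26 had its closest AAV-Cre region 2202 bp downstream (fold 3.08, q = 2.91e-04). Ccl24 was counted only through regions that were closer to Ccl26, and Ccl11 was without a region within 15 kb in either list.

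Several other Ccl ligands had no region within 15 kb in either list. Ccl2, Ccl7, Ccl8 and Ccl12 had their nearest AAV-Cre regions 58661, 68802, 16392 and 29732 bp away, and their nearest AAV-GFP regions 61399, 71540, 47078 and 60418 bp away. Of these, Ccl2, Ccl7 and Ccl12 act through Ccr2. Ccl5, Ccl6 and Ccl9, which act through Ccr1, were likewise unmarked, with AAV-Cre regions at 62787, 45909 and 60360 bp. Ccl20, the ligand of Ccr6, had its nearest regions at 40889 bp in AAV-Cre and 40916 bp in AAV-GFP. Ccl25, the ligand of Ccr9, had them at 54608 and 98320 bp. Ccl28, a mucosal ligand of Ccr10, lay just outside the 15 kb limit, with an AAV-Cre region 15362 bp downstream of the start (fold 3.30, q = 8.44e-05), the first of 4 AAV-Cre regions along its gene body, where AAV-GFP had 1 region of 124 bp. The ligands Ccl19, Ccl21a, Ccl21b, Ccl27a and Ccl27b were also without a region, but at them between 67.7% and 100% of the 32-base sequences within 1 kb of the start occurred more than once in the genome, compared with at most 19.2% at the other 50 genes. Since reads from repeated sequence cannot be placed uniquely, the absence of regions at these 5 genes cannot be read.

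Of the 16 typical receptors, 10 (62.5%) were marked within 15 kb in AAV-Cre and 5 (31.25%) in AAV-GFP, beside 43.1% and 29.0% of all genes. Cxcr4, the receptor of Cxcl12, had the region with the highest fold of any chemokine gene. This AAV-Cre region at chr1:128590589-128596205 (5617 bp) covered the start and a coding exon with a fold of 9.22 (q = 2.65e-35). In AAV-GFP, 5 separate regions lay within its bounds, of which the strongest, at chr1:128590840-128591928, was in the intron 362 bp from the start (fold 3.71, q = 1.04e-06), and the next, at chr1:128593048-128593798, was 758 bp upstream (fold 2.73, q = 0.00102). Regions covered 68.4% of the Cxcr4 gene body in AAV-Cre and 26.6% in AAV-GFP.

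Ccr9, which directs lymphocytes to the gut, had an AAV-Cre region of 3735 bp at chr9:123675731-123679465 (fold 7.13, q = 6.67e-29) over a GENCODE start, with an AAV-GFP region of 878 bp over the same start (fold 3.47, q = 1.26e-06). That start lay 88772 bp upstream of the RefSeq start, and the region also touched the gene Slc6a20a. From the RefSeq start, the nearest regions were 41099 bp away in AAV-Cre and 82474 bp in AAV-GFP, so that Ccr9 was marked in neither list. Ccr10, a receptor of skin-homing and mucosal cells, had an AAV-Cre region of 562 bp over the start (fold 3.09, q = 5.47e-05). Its AAV-GFP region of 237 bp, 925 bp upstream (fold 3.49, q = 8.64e-06), was closer to the start of Cntnap1. Ccr4, the receptor of Ccl17 and Ccl22, had its strongest AAV-Cre region at chr9:114499646-114500572 in an intron, 3084 bp from the start (fold 5.87, q = 5.67e-16), and a 163 bp AAV-GFP region inside it (fold 3.23, q = 9.07e-04).

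The receptors Ccr7, Ccr6 and Ccr8 were marked within 15 kb in AAV-Cre only, and Cxcr5 was marked in both lists. Ccr7, which guides lymphocytes and dendritic cells to lymph nodes, had 8 AAV-Cre regions within 15 kb, including one of 1857 bp over the start at chr11:99153620-99155476 (fold 3.47, q = 2.27e-05), and none in AAV-GFP within 23484 bp. Ccr6, the receptor of Ccl20, had 4 AAV-Cre regions, including one of 852 bp over a start at chr17:8243072-8243923 (fold 2.73, q = 0.0086), and no AAV-GFP region within 143441 bp. Cxcr5, the receptor of Cxcl13, had an AAV-Cre region 228 bp from a start (chr9:44526649-44527490, fold 2.99, q = 9.46e-04), and its AAV-GFP region of 196 bp was 4271 bp away (fold 2.34, q = 0.432). Ccr8, a receptor of regulatory and other T cells, had 4 AAV-Cre regions between 5910 and 12161 bp from the start, with folds from 2.30 to 2.86. Each of these 4 receptors had 4 or more AAV-Cre regions within 15 kb, none with a fold above 3.86.

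Cxcr2, the neutrophil receptor of the chromosome 5 ligands, had an AAV-Cre region of 794 bp over the start at chr1:74153329-74154122 (fold 2.95, q = 9.46e-04), with no AAV-GFP region within 53994 bp. Its neighbour Cxcr1 had no region within 37381 bp in AAV-Cre. The receptors Ccr1, Ccr1l1, Ccr2 and Ccr3, which are grouped on chromosome 9, were unmarked, with AAV-Cre regions at 37359, 47075, 23779 and 27634 bp. Cxcr6, carried by T and natural killer cells, was also unmarked, at 49098 bp.

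Of the 4 atypical receptors, Ackr3 was marked in both lists. Ackr3, which takes up Cxcl12, lay under the widest region of any chemokine gene, an AAV-Cre region of 6255 bp at chr1:90201417-90207671 (fold 4.88, q = 2.36e-14). Within it, AAV-GFP had 3 regions of 913, 722 and 1292 bp, of which the 722 bp region covered the start (fold 3.13, q = 0.00145). Ackr1, a chemokine-binding protein of red cells and venules, had 1 AAV-Cre region of 360 bp, 8578 bp downstream of the start (fold 2.69, q = 0.0086), and none in AAV-GFP within 32603 bp. Ackr2, which degrades inflammatory CC ligands, and Ackr4, which takes up Ccl19, Ccl21 and Ccl25, had their nearest AAV-Cre regions at 33848 and 105318 bp.

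Ligands and their receptors were set side by side. Cxcr4 and Ackr3 were marked in both lists, and their common ligand Cxcl12 had only the weak AAV-Cre region. Ccr4 and its ligand Ccl17 were marked in both lists, with Ccl22 marked in AAV-Cre only. Ccr9 was marked in both lists, but only from a start 88772 bp upstream of its RefSeq start. Cxcr5 was marked in both lists, in AAV-GFP through a region of 196 bp (q = 0.432). Ccr6 was marked in AAV-Cre only. The respective ligands of these receptors, Ccl25, Cxcl13 and Ccl20, were marked in neither list. The reverse was seen for Cxcr6, which was unmarked while Cxcl16 was counted through regions closer to Zmynd15. For Ccr8 with Ccl1, both were marked in AAV-Cre, and in AAV-GFP only Ccl1 was. These pairs are a description, and no pattern across them was tested.

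The CpG content of the starts was then compared, as it does not depend on the lists. A start was called CpG-rich where a window of 500 bp within 1 kb had a CpG observed over expected ratio above 0.6 and a GC content above 55%, CpG-poor where no window had a ratio above 0.4, and intermediate otherwise. Chemokine genes were mostly CpG-poor. There were 30 CpG-poor (54.5%; all genes, 22.2%), 17 intermediate (30.9%; all genes, 16.2%) and 8 CpG-rich genes (14.5%; all genes, 61.6%), and the median ratio around the start was 0.207, compared with 0.586 for all genes. The CpG-rich genes were Cxcr4, Cxcl16, Cxcl14, Ccl27a, Cxcl5, Cxcl12, Ccl25 and Ccr9. For Ccl25, the ratio was taken at a start 24355 bp upstream of its RefSeq start.

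Within 1 kb, 5 of the 8 CpG-rich chemokine genes were marked in AAV-Cre (all CpG-rich genes, 28.5%). In AAV-GFP 4 of the 8 were (all CpG-rich genes, 23.0%). Of the 5, Cxcl16 was counted through a region closer to the start of Zmynd15. Ccr9, marked in both lists, was counted and classed through a start 88772 bp from its RefSeq start. Among intermediate genes 7 of 17 were marked in AAV-Cre (all such genes, 28.5%) and 3 of 17 in AAV-GFP (all such genes, 14.1%). Among CpG-poor genes 4 of 30 were marked in AAV-Cre (all such genes, 11.0%) and 0 of 30 in AAV-GFP (all such genes, 2.98%). The 4 CpG-poor genes were Cxcr2, Ccl1, Ccl4 and Cxcl3. When each gene was instead classed from 1 window of 1000 bp, 4 were CpG-rich, 6 intermediate and 45 CpG-poor, and the counts by class changed. AAV-Cre then marked 2 of 4 CpG-rich (all such genes, 25.1%), 2 of 6 intermediate (all such genes, 33.7%) and 12 of 45 CpG-poor genes (all such genes, 19.1%). AAV-GFP marked 2 of 4 (all such genes, 21.0%), 1 of 6 (all such genes, 25.1%) and 4 of 45 (all such genes, 8.39%). Genes marked in both lists had a median ratio of 0.379 (range 0.295 to 0.929, 7 genes), those marked in AAV-Cre only 0.176 (0.137 to 0.608, 9 genes), and those marked in neither 0.185 (0.064 to 1.07, 39 genes). These ratios were taken at the most upstream start of each gene. For Ccr6 and Cxcr5, marked in AAV-Cre only, that start had no region within 1 kb. Thus the genes marked in both lists had higher ratios than most, while those marked in AAV-Cre only overlapped widely with unmarked genes.

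**Figure D3:**
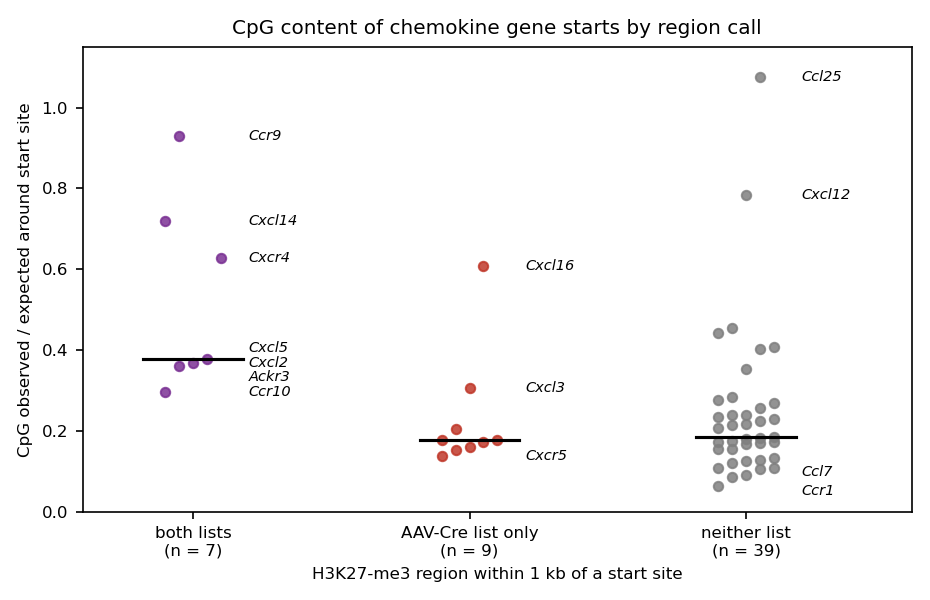
CpG observed over expected ratio in 1000 bp around the most upstream start of each of the 55 genes, grouped by whether an H3K27-me3 region lay within 1 kb of a start in both lists, in the AAV-Cre list only or in neither, with the median of each group as a black bar. The 7 genes marked in both lists lie at 0.295 or above, and the CpG-rich Ccl25 and Cxcl12 are unmarked. The starts measured for Ccr9 and Ccl25 lie 88772 and 24355 bp upstream of their RefSeq starts.

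The regions themselves were then compared between the lists. Near chemokine genes (within 15 kb of a start or over the gene body) there were 85 AAV-Cre regions, of which 13 (15.3%) overlapped an AAV-GFP region, compared with 24.2% of all AAV-Cre regions. Of the 31 AAV-GFP regions near these genes, 29 (93.5%) overlapped an AAV-Cre region, compared with 86.4% of all. All 29 lay wholly inside the 13 AAV-Cre regions, so a single AAV-Cre region could hold several AAV-GFP regions, up to 6 at Zmynd15 beside Cxcl16, 5 at Cxcr4 and 4 at Ccr9. The AAV-GFP regions filled between 13.4% (Ccr10) and 56.4% (the region near Cxcl16) of the AAV-Cre region around them, with a median of 39.9%.

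The 13 AAV-Cre regions that overlapped the other list were wider (median 2041 bp) and of higher fold (median 5.87) than the 72 that did not (603 bp and 2.75). The same held over all regions of the list (1877 bp and 4.30 against 638 bp and 2.73). The 72 regions without an AAV-GFP counterpart near chemokine genes were thus mostly short and of low fold. The exceptions with a fold above 4 were the Cxcl3 region and a region of 1598 bp 12249 bp downstream of Ccl26 (fold 4.56, q = 7.22e-10), which was closer to the start of Hip1. In the strongest 10% of the AAV-Cre list were 9 of the 85 regions, and in the strongest 10% of the AAV-GFP list 4 of the 31.

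**Figure D4:**
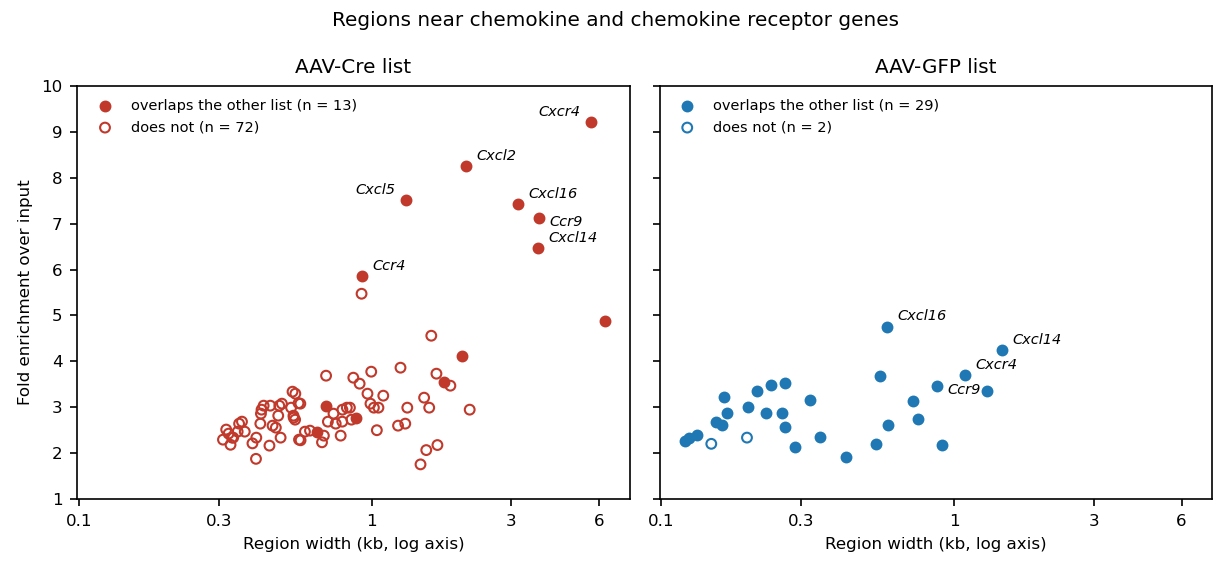
Width (kb, log axis) and fold enrichment over input of each region near the 55 genes in the AAV-Cre list (85 regions, red) and the AAV-GFP list (31 regions, blue), with filled symbols for regions that overlap the other list, and names at the strongest regions. The regions that overlap AAV-GFP include the widest and strongest AAV-Cre regions (Cxcr4, fold 9.22), and folds are not comparable between the panels.

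With respect to position, 13 of the 83 pairs of an AAV-Cre region and a chemokine gene within 15 kb had the region over the start, 40 had it upstream and 30 downstream. In 59 of the 83 pairs the chemokine gene had the closest start. Over gene bodies, 19 genes (34.5%) had an AAV-Cre region, compared with 29.8% of all genes, and 10 (18.2%) had an AAV-GFP region, compared with 21.4%. Of these, 9 had a body region in AAV-Cre only (all genes, 9.1%) and 0 in AAV-GFP only (all genes, 0.748%). The mean length covered by regions in the 15 kb on both sides of the most upstream start was 1.53 kb in AAV-Cre, compared with 2.18 kb for all genes, and 0.250 kb in AAV-GFP, compared with 0.635 kb. The chemokine genes were therefore covered over a shorter length than all genes in both lists, although in AAV-Cre a larger share of them was marked.

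Finally, the genes were examined by cluster, defined as runs of chemokine genes with gaps of at most 500 kb. There were 9 clusters with 36 genes, and 19 genes stood alone. Within 15 kb, 15 of the clustered genes (41.7%) were marked in AAV-Cre and 6 (16.7%) in AAV-GFP, and of the single genes 12 (63.2%) and 7 (36.8%) were, beside 43.1% and 29.0% of all genes. The clustered genes include the 5 in repeated sequence, without which the shares were 48.4% and 19.4% of 31 genes. The clusters, with 15 kb added at each end, spanned 2447 kb, of which AAV-Cre regions covered 48.2 kb (1.97%, compared with 2.98% of chromosomes 1 to 19) and AAV-GFP regions 7.40 kb (0.303%, compared with 0.602%). Without the chromosome 4 cluster, whose starts lie in repeated sequence, AAV-Cre regions covered 47.8 kb of 1412 kb (3.39%) and AAV-GFP regions 7.175 kb (0.508%). The AAV-Cre share was then above that of the chromosomes, and the AAV-GFP share was below it with and without this cluster. The share of the chromosomes still includes their repeated sequence, so the comparison without this cluster is not like with like.

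Clusters differed widely from each other. The neutrophil ligand cluster on chromosome 5 (Cxcl5 to Cxcl2) had all 5 genes marked in AAV-Cre and 3 in AAV-GFP, through 7 and 2 regions that covered 3.73% and 0.499% of its span. The span of the Ccl22 and Ccl17 cluster on chromosome 8 had the highest coverage, with 10 AAV-Cre regions over 14.97% and 6 AAV-GFP regions over 2.86%. Neither Ccl22 nor Ccl17 had a region within 1 kb of a start or over its body in either list. The widest AAV-Cre region of this span lay between them, at Cx3cl1, a gene outside the naming rule. Of the chromosome 11 clusters, that from Ccl2 to Ccl1 had only Ccl1 of 6 genes marked, and that from Ccl5 to Ccl4 had Ccl3 and Ccl4 of 5 marked in AAV-Cre and no AAV-GFP region. In the former a stretch of 111 kb held no AAV-Cre region, and in the latter a stretch of 128 kb did not. The Cxcl9 and Cxcl10 cluster (57.5 kb) had no region in either list. The Ccl27a to Ccl21a cluster on chromosome 4 had 1 region in each list, which covered 0.0392% and 0.0220% of its span, and it holds the repeated sequence described above.

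**Figure D5:**
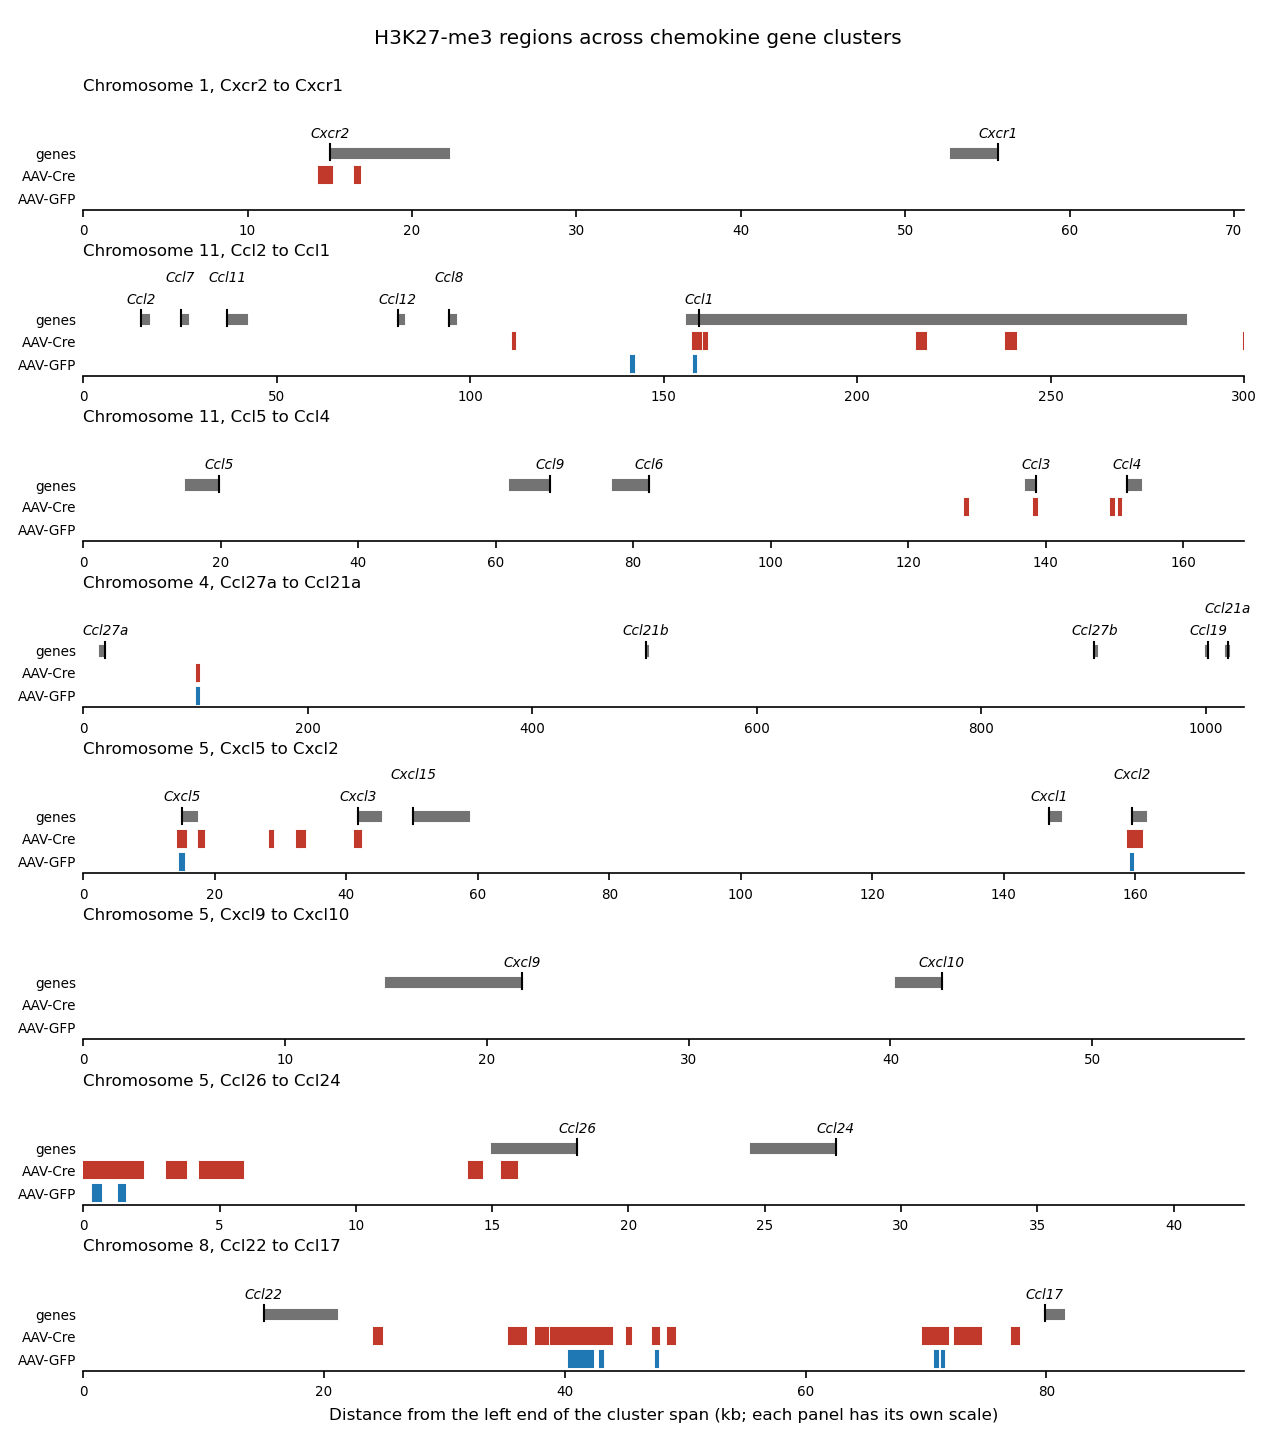
Genes (grey bars, with start sites as black ticks) and H3K27-me3 regions of the AAV-Cre (red) and AAV-GFP (blue) lists along 8 of the 9 chemokine gene clusters, in kb from the left end of each span, with a separate scale in each panel and a minimum drawn width for narrow features. The Cxcl5 to Cxcl2 cluster has regions at its genes in both lists, whereas the Cxcl9 to Cxcl10 cluster has none.

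Other genes of the chemokine pathway and 2 other families were counted for comparison within 15 kb. At this distance 43.1% of all genes were marked in AAV-Cre and 29.0% in AAV-GFP. Of ligands outside the naming rule, Pf4, Ppbp and Cx3cl1 were marked in both lists and Xcl1 in neither. Of receptors, Xcr1 was marked in both lists, and Ccrl2 and Cx3cr1 in AAV-Cre only. Among 19 genes of signal transduction 12 were marked in AAV-Cre and 7 in AAV-GFP, including Elmo1 and Plcb2 in both. Among 8 transcription factors that induce chemokines, Irf7 was marked in both lists and Cebpb in AAV-Cre, and within 1 kb none was marked in either. Of 77 interleukin and interleukin receptor genes 37 were marked in AAV-Cre and 22 in AAV-GFP. Of 24 FGF ligands and receptors, a family of developmental regulators, 21 and 17 were. The shares of marked genes were thus 49.1% and 23.6% for chemokine genes, 48.1% and 28.6% for interleukins and 87.5% and 70.8% for the FGF family. In AAV-Cre only, the shares were 25.5%, 22.1% and 16.7%, beside 15.3% of all genes. These differences were not tested.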

How the data were processed

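H3K27-me3 ChIP-seq of mouse liver was available as 1 narrowPeak list per virus group. Per the labels and the study's methods, the authors aligned reads to mm10 and called regions against pooled input on both replicates together, keeping those found in the naive overlap of replicates. The submitters' processing notes name BWA 0.7.13, SAMtools 1.2 and Picard 1.126. The deposited values used were the fold enrichment (a ratio of ChIP to local input) and the −log10 p and q of each region. The deposited lists hold no counts, so the depth of the libraries is unknown and no interval from counting error could be given.

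Start sites were those of basic protein-coding transcripts of GENCODE M21 (mm10) on chromosomes 1 to 19. A further 87 protein-coding genes without such a transcript were left out. Distances, overlaps (at least 1 bp), covered bases, CpG content and repeated 32-base sequences were computed with Python 3.11.15, numpy 2.4.6, pandas 2.3.3 and scipy 1.17.1, and plotted with matplotlib 3.10.9. The functions were tested on simulated data. Because each list pools its replicates, no test was run, and the main counts stand beside those over all 20720 genes. The genes and lists were chosen with earlier results of these data known. Some results on single genes are not reported here. The other chemokine genes are named, and those with a region within 1 kb of a start, or within 15 kb in 1 list only, are given with their regions. Promoters printed were those of the 3 genes with the lowest p-value in AAV-Cre among genes marked within 1 kb in both lists, the lowest in CpG content among genes marked in neither list, and 2 chosen after the values were seen. Alternatives were other windows, q-value limits of 0.05 and 0.01, regions of at least 300 bp, equal numbers of regions, another CpG window, other cluster gaps and overlap rules, and RefSeq starts.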

Additional observations from a re-analysis of the deposited data

How the results depend on the processing

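Of 126 recomputed values over 22 results, 102 stayed close to the reported value and 24 moved. No gene was marked in AAV-GFP only under any alternative run. With a window of 50 kb in place of 15 kb, 42 genes were marked in AAV-Cre and 28 in AAV-GFP, and with 5 kb, 9 were marked in AAV-Cre only. With q of 0.01 or lower, 8 genes were marked within 15 kb and 5 over the body in AAV-GFP, and AAV-GFP regions covered 3.76 kb of the clusters. With q of 0.05 or lower, 6 genes had an AAV-GFP body region. With regions of at least 300 bp, AAV-GFP marked 6 genes within 15 kb, 5 over the body and 1 intermediate gene within 1 kb, and 14 genes had a body region in AAV-Cre only. With equal numbers of regions, 5 genes were marked in AAV-Cre only within 1 kb and 5 over the body. With CpG classes from 1 window of 1000 bp, which hold 4, 6 and 45 genes, AAV-Cre marked 2 CpG-rich, 2 intermediate and 12 CpG-poor genes within 1 kb, and AAV-GFP marked 2, 1 and 4, so the counts by class depend on how CpG content was measured. Where an overlap of at least 50% was required, 3.53% of the AAV-Cre regions near chemokine genes were in both lists, and where regions within 1 kb counted as shared, 28.2% of AAV-Cre and 100% of AAV-GFP regions were. With q limits of 0.05 and 0.01, 100% and 100% of AAV-GFP regions were in both lists. The next alternatives were chosen after seeing the data. With RefSeq starts, 26 and 12 genes were marked within 15 kb, and without regions closer to another gene's start, 23 and 10 were. Without the chromosome 4 cluster, regions covered 3.39% (AAV-Cre) and 0.508% (AAV-GFP) of the other 8 clusters, in place of 1.97% and 0.303%. The AAV-Cre share thus moved from below to above that of the chromosomes, from which repeated sequence was not removed. The causes of these changes were not tested, beyond what each alternative removes or adds.

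No paired analysis was possible because each list pools both replicates of its group, and for the same reason leaving out a replicate could not be run. The lists give presence of a region, not a level of the mark. The AAV-Cre list was longer and its regions wider than those of the AAV-GFP list, so virus group, depth and peak calling cannot be told apart, and a region in 1 list only is not a measured difference. The unknown depth limits what the absence of a region shows.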
